A study of Mus musculus with 5 samples.

Results

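Bcl2l11 encodes BIM, a protein that starts programmed cell death, and it was set beside 9 relatives of the Bcl2 family: Bbc3, Pmaip1, Bid, Bad, Bax, Bak1, Bcl2, Bcl2l1 and Mcl1. The 10 genes, of 21887 protein-coding genes in a RefSeq table of the GRCm38.p6 assembly, were listed by name, and every peak inside a gene span or within 50 kb of it was taken from 4 peak lists (mm10 coordinates, which are those of this assembly, throughout). Bcl2l11 was put on the list because both c-Maf antibody libraries held a peak at one of its sites, so that site is described here and not tested. The family works as a balance at the outer mitochondrial membrane. BH3-only proteins such as BIM sense damage or the loss of growth factors and bind the anti-apoptotic members, which releases or activates the effectors BAX and BAK to open the membrane. In mouse blood cells BIM is known for carrying out death after a growth factor is withdrawn.

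The libraries came from chromatin immunoprecipitation followed by sequencing (ChIP-seq) of C57Bl/6 cells labelled M2 BMM and polarized in vitro; BMM is the usual short form for bone marrow macrophages. The titles of all samples say M0 instead, and nothing in the labels settles which state was used. The samples were 2 libraries of a c-Maf antibody, 2 isotype libraries made with normal rabbit IgG, and 1 input, numbered 3 and 4 (the input 4); the antibody libraries are called c-Maf 3, c-Maf 4, isotype 3 and isotype 4 here. The question was where on DNA the transcription factor c-Maf, of the basic leucine zipper class, is found. Age, sex and number of animals are not given in the sources used here, and peak lists hold no RNA values, so neither cell identity nor expression of the family could be checked.

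After removal of duplicates, 21655683 to 22017759 tags remained per antibody library. c-Maf 3 had 23434 peaks and c-Maf 4 had 17620, against 58732 in isotype 3 and 15568 in isotype 4. Isotype 3 went lower than the others: 18.8% of its peaks had 3 tags stacked at the summit (the highest point of a peak), while no other list held a peak under 4 tags. The fragment length used in calling also differed. It was 53 bp in isotype 3, 56 bp in isotype 4, 60 bp in c-Maf 4 and 63 bp in c-Maf 3. Its bearing on the list lengths was not tested. Each list stands for 1 library, called separately, and the 2 numbers are biological replicates per the series' design text.

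The Bcl2l11 site lay inside the gene, at chr2:128128010-128128208 on the plus-strand gene's 36.5 kb span (chr2:128126038-128162547). Its first base was 435 bp downstream of the second of the 2 annotated start sites of the gene and 1972 bp downstream of the first. The sequence of the site itself was not analysed here. The promoters at both start sites are shown because they are the promoters nearest to it, each with 250 bases before and 50 after the start, from RefSeq on GRCm38.p6, plus strand, 5′ to 3′, with every CpG dinucleotide in capitals.

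Bcl2l11 first start, chr2:128125788-128126087:
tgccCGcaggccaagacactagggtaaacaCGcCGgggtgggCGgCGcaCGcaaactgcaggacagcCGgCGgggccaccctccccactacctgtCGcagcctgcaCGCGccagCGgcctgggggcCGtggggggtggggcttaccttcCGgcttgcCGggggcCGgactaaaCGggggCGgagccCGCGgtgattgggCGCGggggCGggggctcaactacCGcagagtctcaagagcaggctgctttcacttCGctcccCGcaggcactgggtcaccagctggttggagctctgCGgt

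Bcl2l11 second start, chr2:128127325-128127624:
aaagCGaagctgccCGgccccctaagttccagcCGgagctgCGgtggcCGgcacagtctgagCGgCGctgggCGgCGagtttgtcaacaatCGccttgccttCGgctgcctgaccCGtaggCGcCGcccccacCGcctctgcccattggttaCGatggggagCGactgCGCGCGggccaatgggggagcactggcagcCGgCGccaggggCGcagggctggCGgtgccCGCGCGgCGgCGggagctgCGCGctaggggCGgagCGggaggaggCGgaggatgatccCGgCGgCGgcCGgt

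The first promoter has 71.0% G and C with 27 CpG, and the second has 74.0% with 38, against medians of 56.3% and 13 over 21263 promoters of protein-coding genes. No peak of any of the 4 lists overlapped either promoter, nor any of the 15 promoters matched to 9 of the 10 genes; Pmaip1 was not among those matched. The full recognition elements of Maf proteins are the T-MARE of 13 bases and the C-MARE of 14 bases. Each was searched as an exact string, and neither was found on either strand in any of the 21263 promoters, these 15 included. Exact strings of this length are rarely met, and a site differing at any base is missed. This absence therefore cannot show whether promoters hold Maf sites. The core of the 13-base element, 7 bases long, occurred in 4.66% of all promoters. That of the 14-base element, 8 bases long, occurred in 2.23%. Neither core was in any of these 15. The 6 bases TGCTGA, with which both elements begin, occurred on either strand in 18.1% of all promoters. It was in neither Bcl2l11 promoter, and among the members it was found in the promoter of Mcl1 alone, at 2 positions. These matches describe windows that hold no peak.

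At the Bcl2l11 site c-Maf 3 had a summit pileup of 7.76, which is 8 tags after undoing the authors' scaling to the input (exact 95% Poisson interval 3.45 to 15.8, counting error only). c-Maf 4 had a pileup of 13.82, or 14 tags (7.65 to 23.5). The fold enrichment over the local input level was 5.59 in c-Maf 3 and 9.81 in c-Maf 4. Both peaks passed a q-value of 0.05, with a −log10 q of 1.5 in c-Maf 3 and 8.07 in c-Maf 4. The authors called all peaks with a human effective genome size. How a mouse size would change the fold enrichments, p and q was not tested. The peaks overlapped by 155 bp, the whole length of the c-Maf 4 peak, and their summits were 78 bp apart. Neither isotype library held a peak there. The nearest isotype 3 peak was 3.3 kb away with a fold enrichment of 3.45, and the nearest isotype 4 peak was 239.7 kb away. An isotype stack below the level at which a peak was listed would not be seen, and that level was 3 tags in isotype 3 and 4 tags in isotype 4 at its lowest.

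**Figure D1:**
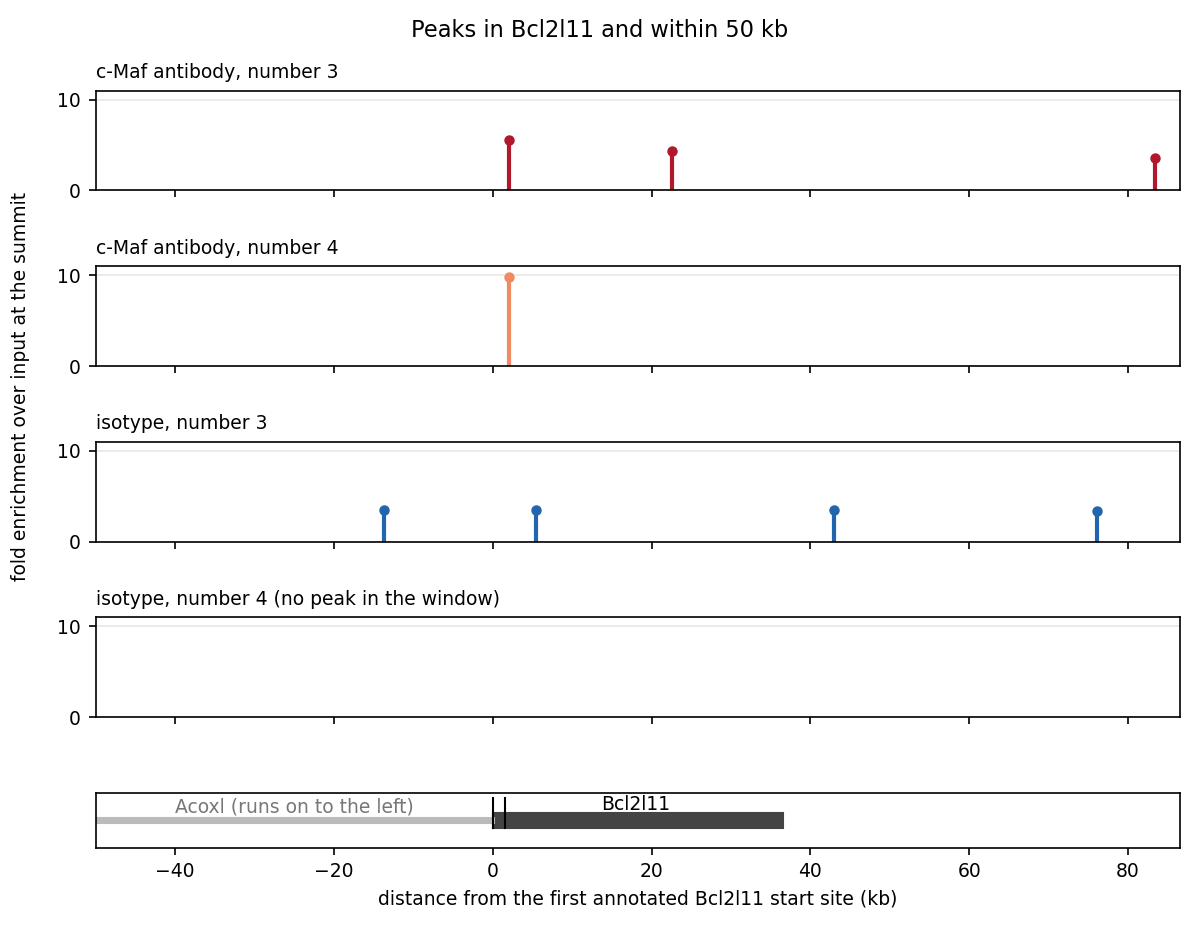
Peaks of each library in Bcl2l11 and 50 kb to either side; the horizontal axis is the distance from the first annotated start site in kb, the height of each line is the fold enrichment over input at the summit, and the lowest panel draws the gene spans with ticks at the 2 start sites. The peaks of 5.59 and 9.81 stand at the same place in both c-Maf antibody libraries, where neither isotype library has one.

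The site was strong within its lists, more so in c-Maf 4. By p-value it ranked 7 among the 17620 peaks of c-Maf 4 and 600 among the 23434 peaks of c-Maf 3. Peaks merged across the lists by an overlap of at least 1 bp gave 491 regions with a peak in c-Maf 3 and c-Maf 4 and none in isotype 3 or isotype 4, here called c-Maf-only, and 409 isotype-only regions by the reverse definition. Among the 491, the Bcl2l11 site ranked 34 by the mean of its percentiles by p-value within the c-Maf 3 and c-Maf 4 lists. Its fold enrichment ranked 4 in c-Maf 4 and 86 in c-Maf 3, and the medians over these regions were 4.02 in c-Maf 4 and 4.31 in c-Maf 3. A q-value of 0.05 in c-Maf 3 and in c-Maf 4 was reached by 36 of the 491, this site included. Annotated start sites lay within 1 kb of 30 of 464 c-Maf-only regions (6.47%), the Bcl2l11 site among them. For isotype-only regions it was 11 of 389 (2.83%). Both counts took only regions on chromosomes for which start sites were at hand. The 21263 promoters used for this were fewer than the 21887 genes, so some genes lacked a start site. Both shares may therefore be too low.

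**Figure D2:**
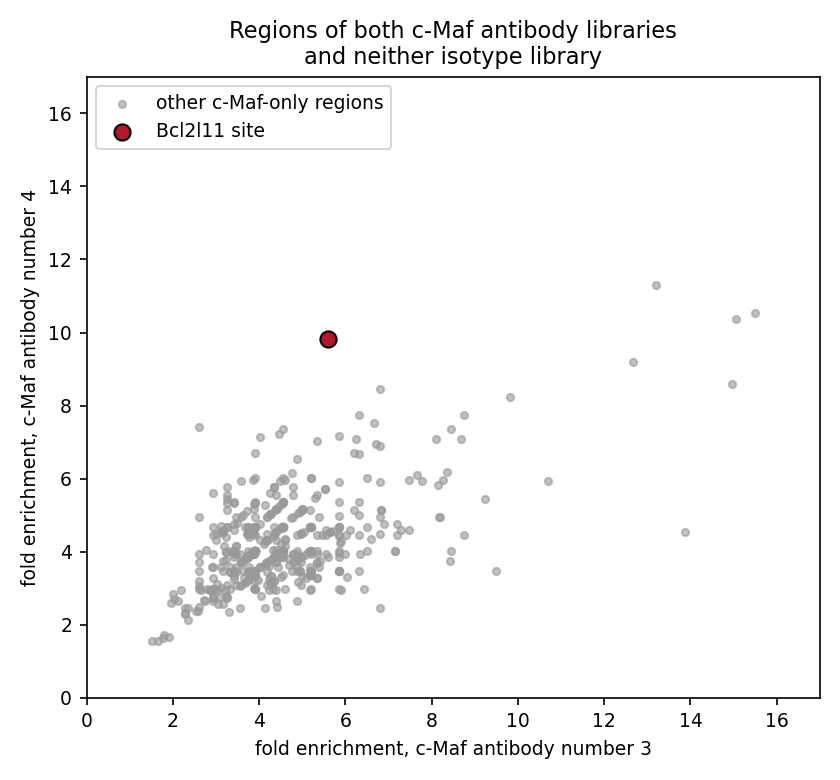
Fold enrichment of the 491 c-Maf-only regions in c-Maf 3 (horizontal) and c-Maf 4 (vertical), 1 point per region. The Bcl2l11 site, at 5.59 and 9.81, has a higher value in c-Maf 4 than all but 3 other regions.

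The rest of the Bcl2l11 window held weaker peaks, each in a single library. c-Maf 3 had another peak inside the gene, at chr2:128148535-128148619, with a fold enrichment of 4.39 and 6 tags at the summit. Its last peak, 46.9 kb downstream of the gene, had a fold enrichment of 3.62. c-Maf 4 had no peak besides the shared site. Isotype 3 had 4 peaks of 4 tags each, with fold enrichments of 3.41 to 3.45, of which 1 was inside the gene and 1 was 13.7 kb upstream inside the neighbouring gene Acoxl. Isotype 4 had none. Acoxl overlaps the first start of Bcl2l11 by 215 bp and ends 1758 bp before the site, so the site is inside Bcl2l11 alone.

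Across the family, a c-Maf-only region was found in or within 50 kb of 1 of the 10 genes, Bcl2l11, and the share of all protein-coding genes with one was 3.17%. No member had an isotype-only region, against 1.45% of all genes. With the window reduced to the gene span itself, 1 of 10 had a c-Maf-only region, beside 0.946% of all genes, and 0 had an isotype-only region, beside 0.48%. Peaks that passed a q-value of 0.05 in c-Maf 3 and in c-Maf 4, at any position in the window, were found for Bcl2l11 and none of the 9 relatives, beside 0.599% of all genes. Since Bcl2l11 was chosen for this site, these counts describe the list and do not set the family apart.

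The windows of the 10 genes held 46 peaks, and 38 of them belonged to the relatives. No peak of a relative passed a q-value of 0.05 in any library. Such peaks were uncommon near genes in general. In the gene or within 50 kb, 6.21% of all protein-coding genes had one of the c-Maf antibody and 2.25% one of the isotype. Their absence from so short a list therefore does not set the relatives apart. Fold enrichments of the relatives' peaks ran from 2.93 to 4.78 in the c-Maf antibody libraries and from 2.76 to 5.45 in the isotype libraries. Of the relatives' peaks, 28 had 5 tags or fewer at the summit, 6 of 13 c-Maf antibody peaks and 22 of 25 isotype peaks. At 5 tags the exact Poisson interval is 1.62 to 11.7, so a single one of these peaks carries a large counting error. No peak of one library overlapped a peak of another at any relative. The share of all genes with an overlap between any libraries was not computed. For overlaps within an antibody alone, c-Maf-only regions were found for 3.17% of all protein-coding genes and isotype-only regions for 1.45%. The absence of overlaps is therefore not shown to set the relatives apart.

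**Figure D3:**
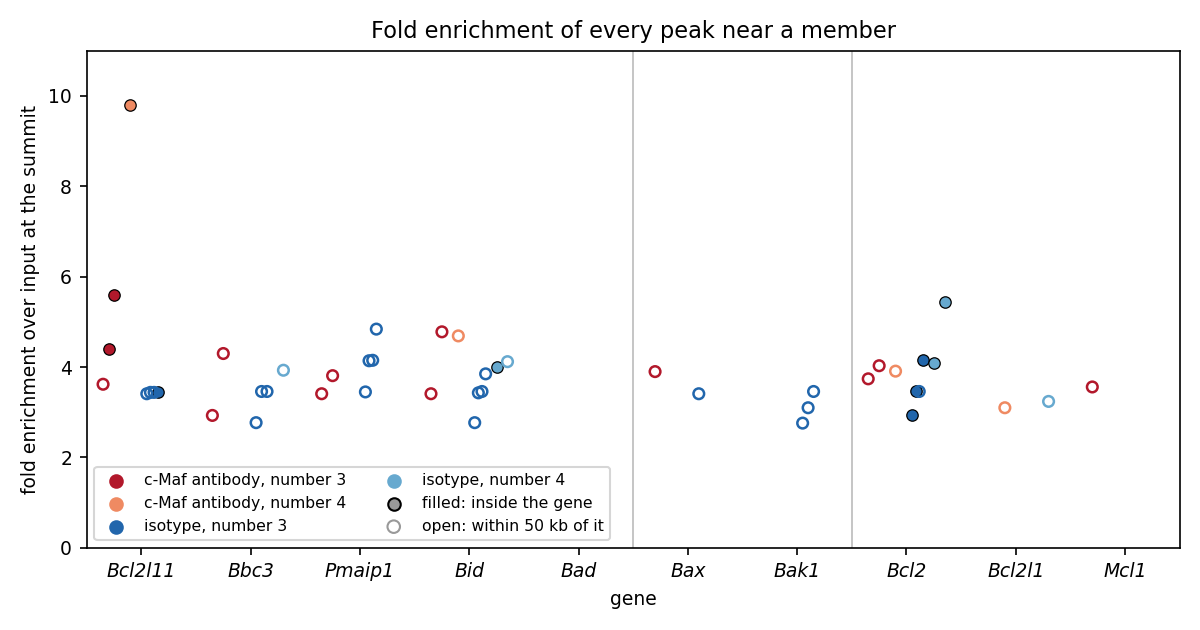
Fold enrichment over input (vertical axis) of each of the 46 peaks in or near the 10 genes, by library; filled circles lie inside the gene and open circles within 50 kb of it. Bcl2l11 has the highest points at 9.81 and 5.59, and the peaks of the other genes lie between 2.76 and 5.45.

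Among the other BH3-only genes, Bbc3 encodes PUMA, a protein induced by p53 after DNA damage. Its window held 2 peaks in c-Maf 3 and 0 in c-Maf 4, against 3 in isotype 3 and 1 in isotype 4. None was inside the gene. The c-Maf antibody peaks, with fold enrichments of 2.93 and 4.30, lay 13.8 kb upstream and 22.4 kb downstream, the second inside Sae1, where all 4 isotype peaks of this window also lay. The isotype 4 peak was the closest, 3.4 kb downstream of Bbc3 with a fold enrichment of 3.93.

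Pmaip1, which encodes NOXA, another p53-induced protein that binds mainly MCL-1, had 2 peaks in c-Maf 3 and 0 in c-Maf 4, against 4 in isotype 3 and 0 in isotype 4. The c-Maf 3 peaks were 7637 bp and 24973 bp from the gene, with fold enrichments of 3.41 and 3.81. The isotype peaks had fold enrichments of 3.45 to 4.84, and none overlapped a c-Maf 3 peak.

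Bid encodes a protein that caspase-8 cleaves to link death receptors to mitochondria. Its window held 2 peaks in c-Maf 3 and 1 in c-Maf 4, against 4 in isotype 3 and 2 in isotype 4. The 3 c-Maf antibody peaks were all downstream, inside Bcl2l13, a neighbouring family member, with fold enrichments of 4.78 and 3.41 in c-Maf 3 and 4.69 in c-Maf 4. The one of 4.78, 8.9 kb from Bid, was 255 bp from an isotype 4 peak with a fold enrichment of 4.12. The only peak inside Bid was an isotype 4 peak, with 5 tags and a fold enrichment of 4.0.

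Bad encodes a BH3-only protein that growth factor signalling holds inactive by phosphorylation. It was the only member with no peak of any list in its window, and 3.84% of all protein-coding genes had none. The nearest peak was 260.5 kb away in c-Maf 3 and 118.6 kb away in c-Maf 4, against 121.7 kb in isotype 3 and 60.9 kb in isotype 4.

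The effectors had few peaks and none inside the genes. Bax had 1 peak in c-Maf 3 and 0 in c-Maf 4, against 1 in isotype 3 and 0 in isotype 4. The c-Maf 3 peak, at chr7:45457455-45457554, had 7 tags and a fold enrichment of 3.90. It lay 4.1 kb downstream of Bax and only 390 bp from Ftl1, which encodes ferritin light chain. Bak1 had no c-Maf antibody peak in its window; the nearest were 55.1 kb away in c-Maf 3 and 159.9 kb away in c-Maf 4. Isotype 3 had 3 peaks there, with fold enrichments of 2.76 to 3.46, and isotype 4 had none.

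Of the anti-apoptotic genes, Bcl2 has the longest span of the list, 176.1 kb. It had 9 peaks in all, as many as Bid, whose span is 23.9 kb. The 9 at Bcl2 were 2 in c-Maf 3 and 1 in c-Maf 4, against 4 in isotype 3 and 2 in isotype 4. The 3 c-Maf antibody peaks were all downstream of the gene, at 19047 bp, 36021 bp and 42591 bp, with fold enrichments of 3.74 to 4.03. The 5 peaks inside Bcl2 were all isotype peaks, 3 of isotype 3 and 2 of isotype 4. The strongest, at chr1:106656217-106656294 in isotype 4, had 7 tags and a fold enrichment of 5.45.

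Bcl2l1, which encodes BCL-XL, had 0 peaks in c-Maf 3 and 1 in c-Maf 4, against 0 in isotype 3 and 1 in isotype 4. These peaks lay upstream, inside Tpx2, with 4 tags each, and their fold enrichments were 3.1 in c-Maf 4 and 3.24 in isotype 4. Mcl1, which encodes a short-lived survival protein on which neutrophils and other myeloid cells depend in mice, had 1 peak, in c-Maf 3. It lay 44.5 kb downstream with 5 tags and a fold enrichment of 3.56. In c-Maf 4 the nearest was 55987 bp away, outside the window.

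**Figure D4:**
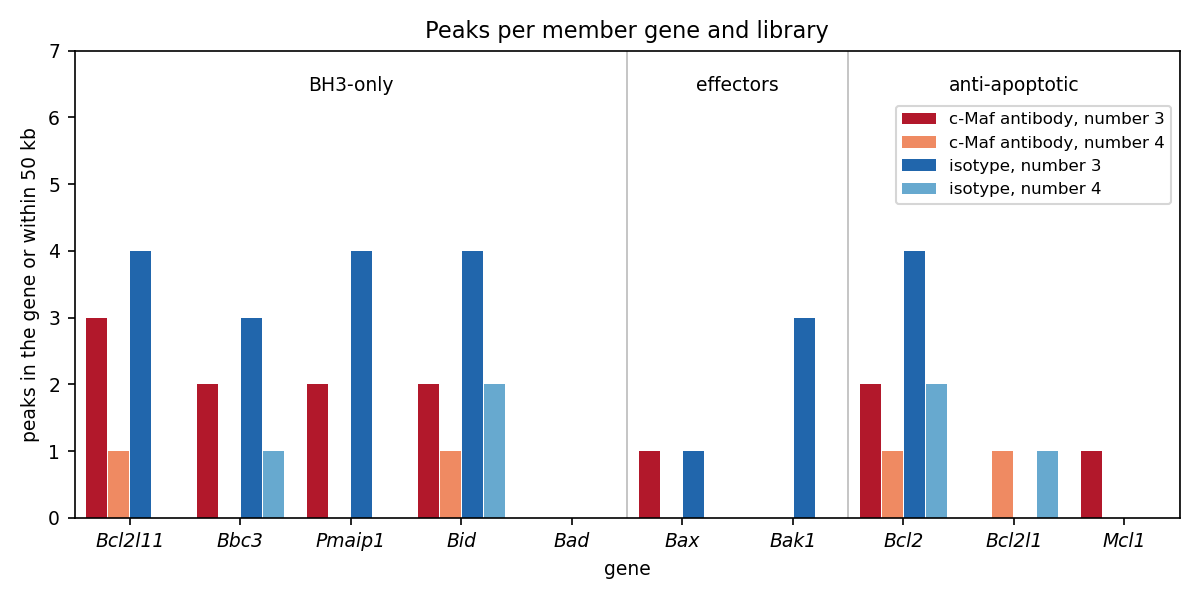
Number of peaks in each gene or within 50 kb of it (vertical axis) in each of the 4 libraries, with the genes grouped by role. Isotype 3 has the most peaks or ties for the most at 7 of the 10 genes, and Bad has none.

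By role, the 5 BH3-only genes together had 9 peaks in c-Maf 3 and 2 in c-Maf 4, against 15 in isotype 3 and 3 in isotype 4. The 2 effectors had 1 peak in c-Maf 3 and 0 in c-Maf 4, against 4 in isotype 3 and 0 in isotype 4. The 3 anti-apoptotic genes had 3 peaks in c-Maf 3 and 2 in c-Maf 4, against 4 in isotype 3 and 3 in isotype 4. These are raw counts of lists of unequal length. Inside the genes, Bcl2l11 held all 3 c-Maf antibody peaks of the list, against 4 in isotype 3 and 3 in isotype 4, spread over Bcl2l11, Bid and Bcl2.

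A peak in the gene or within 50 kb was found in c-Maf 3 for 7 of the 10 members (66.7% of all genes) and in c-Maf 4 for 4 (53.8%), against 7 in isotype 3 (85.0% of all genes) and 4 in isotype 4 (47.3%). Inside the gene itself, c-Maf 3 had a peak in 1 member (23.1% of all genes) and c-Maf 4 in 1 (17.6%), against 2 in isotype 3 (33.7%) and 2 in isotype 4 (15.3%). Windows with peaks of c-Maf 3 and c-Maf 4 alike were those of 3 members, Bcl2l11, Bid and Bcl2 (39.3% of all genes), and windows with peaks of isotype 3 and isotype 4 alike were those of 3, Bbc3, Bid and Bcl2 (42.5%). No member had peaks of 1 antibody in both numbers and none of the other antibody, a pattern seen in 2.02% of all genes for the c-Maf antibody and 5.37% for the isotype. The members' counts were thus near or below the shares of all genes for the c-Maf antibody.

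The member windows cover 1.36 Mb. c-Maf 3 had 13 peaks in them, or 9.57 per Mb, which is 1.02 times its density of 9.38 per Mb over the windows of all protein-coding genes. c-Maf 4 had 4 peaks, or 2.94 per Mb, 0.437 times its general density of 6.74. Isotype 3 had 23 peaks, or 16.9 per Mb, 0.764 times its general density of 22.1. Isotype 4 had 6 peaks, or 4.42 per Mb, 0.753 times its general density of 5.86. The members thus had fewer peaks per Mb than genes in general in 3 of the 4 libraries. These counts include the site for which Bcl2l11 was chosen. Without Bcl2l11, c-Maf 3 had 10 peaks against 11.5 at its general density, and c-Maf 4 had 3 against 8.24. Isotype 3 had 19 against 27.1, and isotype 4 had 6 against 7.16. All 4 were then below the general density. The counts are small, and the differences from the general density were not tested.

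**Figure D5:**
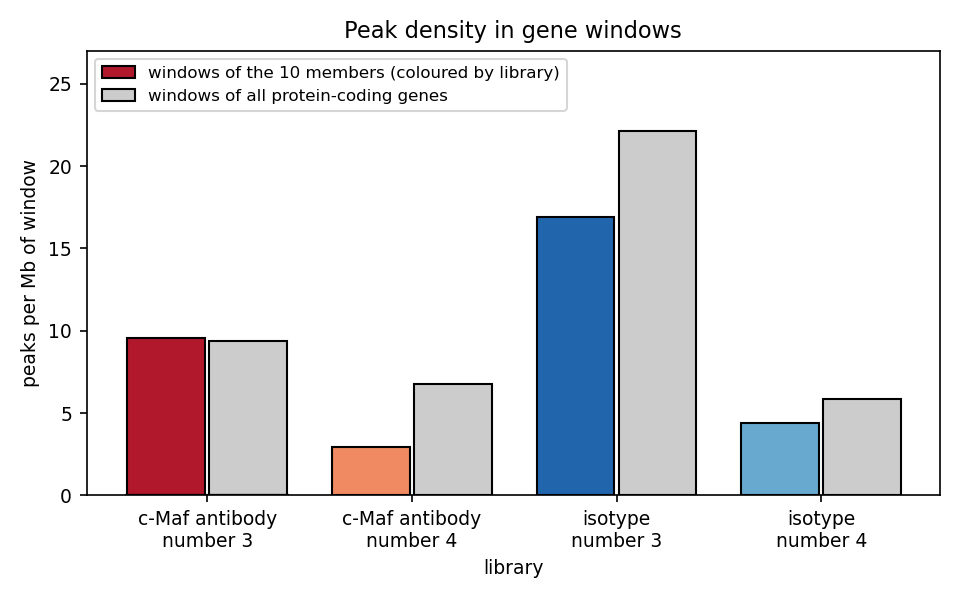
Peaks per Mb in the windows of the 10 member genes (coloured bars) and of all protein-coding genes (grey bars) in each library. c-Maf 4, with 4 peaks in the member windows, has the lowest density there, 2.94 against 6.74 per Mb.

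The 9 relatives leave out the site for which Bcl2l11 was chosen, but they too were listed with earlier results of these data known. In their windows c-Maf 3 had 10 peaks and c-Maf 4 had 3, a mean of 6.5. Isotype 3 had 19 and isotype 4 had 6, a mean of 12.5. The difference in means of -6.0 was smaller in size than the gap between the 2 libraries of either antibody. A two-sided exact permutation test over the 4 libraries gave p = 0.667. The smallest p with 2 against 2 is 0.333, so this test could not have given a low one. Without isotype 3 the difference was 0.5, so its sign rests on that library. When all lists were limited to 15568 peaks, the length of the shortest, taken by p-value, the relatives had 6 peaks in c-Maf 3 and 2 in c-Maf 4, against 4 in isotype 3 and 6 in isotype 4, a difference of -1.0. At equal lengths c-Maf 3 thus had more peaks than isotype 3, the reverse of the full lists. At the edge of the window, the last peaks taken were isotype 3 peaks, 48.8 kb from Pmaip1 and 49.7 kb from Bid, with fold enrichments of 3.45 and 3.43. The first left out was a c-Maf 3 peak, 55.1 kb from Bak1, with a fold enrichment of 4.93.

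None of 40 other apoptosis genes had a c-Maf-only region in the gene or within 50 kb, beside the 3.17% of all genes, and none had an isotype-only region, beside 1.45%. This list holds the other Bcl2 family genes, caspases and their inhibitors, death receptor genes, and genes of proteins that act on BIM, such as Foxo3, a transcription factor that activates Bcl2l11, and Dynll1, a dynein light chain that binds BIM. Of the 40, 29 had a peak of c-Maf 3 in or within 50 kb of the gene and 23 had one of c-Maf 4, against 30 for isotype 3 and 17 for isotype 4. The shares of all genes were 66.7% for c-Maf 3 and 53.8% for c-Maf 4, against 85.0% for isotype 3 and 47.3% for isotype 4. Among the 40, Bcl2a1a, a gene of the A1 survival proteins of myeloid cells, was the only one with peaks of c-Maf 3 and c-Maf 4 and none of isotype 3 or isotype 4 in its window, a pattern of 2.02% of all genes. The c-Maf 3 peak, 27.9 kb from the gene, had a fold enrichment of 3.75. The c-Maf 4 peak, 11.6 kb from it, had one of 2.97, and the peaks did not overlap. The near-identical copies of this gene in mice can share reads, so its place is uncertain.

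Few peaks near these 40 genes passed a q-value of 0.05. A c-Maf 4 peak at chr9:7804749-7804829 lay 13.4 kb from Birc2 and 42.6 kb from Birc3, neighbouring genes of inhibitor of apoptosis proteins, with a fold enrichment of 5.95, and no other list held a peak there. They made 2 of 40 genes, beside 6.21% of all genes with such a c-Maf antibody peak in either library. An isotype 4 peak lay 31994 bp from Apaf1, which encodes the scaffold of the apoptosome, with a fold enrichment of 6.11, and it made 1 of 40 genes, beside 2.25% of all genes. Foxo1 had 3 peaks in c-Maf 3 and 3 in c-Maf 4, against 2 in isotype 3 and 2 in isotype 4. Foxo3 had 2 in c-Maf 3 and 1 in c-Maf 4, against 2 in isotype 3 and 0 in isotype 4. Birc2, Birc3, Apaf1, Foxo1, Foxo3 and Bcl2a1a were singled out after their values were seen.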

How the data were processed

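The 4 peak lists were made by the authors with MACS 2.1.1.20160309 on each library separately, per the file headers, with the number 4 input as control, single-end tags, 1 tag kept per position, a p-value cut-off of 0.01 and a human effective genome size. The submitters' processing notes name mm10, FastQC, MACS 1.4.2 and, with no version, MACS2. No aligner is given in the sources used here. The deposited peaks carry a pileup signal at the summit, scaled to the input, a fold enrichment (a ratio with 1 added to both parts) and a −log10 p and q, per the file headers. These scores come from the authors and rank peaks within a list alone. Dividing each pileup by the scaling gave whole tags within 0.03 for 100.0% of the peaks of each list.

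Regions join peaks of different lists that share at least 1 bp. On simulated lists of well-spaced peaks of equal length, this step returned as many regions as were planted. That checks the code and not its behaviour on the partial overlaps of the real lists. Windows were gene spans widened by 50 kb. Members and lists were chosen with earlier results of these data known. The genes named were the 10 members, wider-list genes having a c-Maf-only region, and genes that hold or border a named peak; others are said to be named after their values were seen. Python 3.11.15, pandas 2.3.3 and scipy 1.17.1 were used. Libraries sharing a number are not said to share an animal or day, and 2 pairs cannot show a pairing.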

Additional observations from a re-analysis of the deposited data

How the results depend on the processing

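The Bcl2l11 region was found under each of the 13 alternatives: other windows, peaks at p of 1e-5 or q of 0.05, equal list lengths, 50% reciprocal overlap, summits within 200 bp, each library left out and the replicate block. The values of the site given above meet each of these settings, and Bcl2l11 was chosen for this site. Its return under them was therefore fixed in advance and is not support for it. The Bcl2l11 region remained the only member region in all 13 but those that left out a c-Maf antibody library. With 1 library left out, members with a c-Maf-only region ranged from 1 to 7, members with an isotype-only region from 0 to 7, Bcl2l11 regions from 1 to 3 and genes of the wider list from 0 to 29, since a lone list is not filtered by a replicate; the shares of all genes were then 53.0% and 65.8% with c-Maf 3 or c-Maf 4 left out, and for isotype-only regions 46.7% and 84.7% with isotype 3 or isotype 4 left out. Within 100 kb the wider list had 1 gene, Dynll1, beside 5.33% of all genes. The difference in peaks of the relatives was 0.0 at q of 0.05, where none is left, -0.5 at p of 1e-5, -1.0 at equal list lengths, -3.0 inside the genes or within 10 kb and -4.5 within 100 kb, and turned to 0.5 without isotype 3, with a range of -12.5 to 0.5 over the 4 libraries left out. With the number as a replicate block, 1 member had a c-Maf-only region and 0 had an isotype-only region. In the wider list 0 genes had a c-Maf-only region, so no call changed. The difference was again -6.0, but the block could not change it. A mean of the differences within each number equals the difference in means. Depth limits single peaks: near the relatives, 6 of 13 c-Maf antibody peaks and 22 of 25 isotype peaks hold 5 tags or fewer.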
